A study of Homo sapiens with 4 samples.

Results

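The nuclear oxidative phosphorylation genes are the genes of the respiratory chain and ATP synthase that are transcribed in the nucleus. They were chosen by symbol: protein-coding GENCODE genes on hg19 that begin with NDUFA, NDUFB, NDUFC, NDUFS, NDUFV, UQCR or ATP5, or with COX followed by a digit, together with SDHA, SDHB, SDHC, SDHD and CYC1. This gave 108 of 20090 protein-coding genes, of which 79 encode structural subunits of the 5 complexes, 17 assembly factors, 9 tissue-restricted isoforms or retrocopies, 2 readthrough transcripts and 1 the ATP synthase inhibitor. No measured value entered the choice.

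The respiratory chain passes electrons from NADH through complex I, or from succinate through complex II, to complexes III and IV, and complex V uses the proton gradient to make ATP. All complexes but complex II combine subunits of the mitochondrial genome with nuclear ones, so their supply depends on coordinated transcription of many unlinked nuclear genes. Known activators of these promoters are the ETS factor GABP, NRF1 and YY1. FLI1 belongs to the same ETS family and recognises the same GGAA core.

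SK-N-MC, an established Ewing sarcoma line, was profiled by ChIP-seq for FLI1, for SSRP1 and for H3K27ac, with 1 library per target and an input library as the authors' control. The labels name no treatment, and no other line or genotype entered the comparison. Ewing sarcoma is driven by fusion of EWSR1 with an ETS gene, most often FLI1. SSRP1 is a subunit of the histone chaperone FACT, and acetylated lysine 27 of histone H3 (H3K27ac) marks active promoters and enhancers. The lists gave the position of each peak, and read depth and peak strength were not analysed here. On chromosomes 1 to 22 and X they held 36305 FLI1, 19855 SSRP1 and 37195 H3K27ac peaks. A gene was taken to carry a mark when at least 1 base of a peak lay within 2.5 kb of a transcription start site (TSS) of a basic transcript. Of 7 Ewing sarcoma marker genes 6 carried FLI1 and all 7 carried SSRP1 and H3K27ac, whereas none of 8 markers of other cell types carried H3K27ac, 1 carried SSRP1 and 3 carried FLI1. With 1 library per target there was no replicate check. Intervals in brackets are 95% Clopper-Pearson intervals, which cover counting error only, and genes are not independent replicates.

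The sequences below show ETS cores that had a FLI1 peak over them, and ETS cores in members with no FLI1 peak in the window. The later split of promoters by ETS core differs, since it counts a FLI1 peak anywhere within 2.5 kb, which need not cover the core. The ETS core was taken as CCGGAAG or CCGGAAA on either strand, so that it also reads CTTCCGG or TTTCCGG, and it stands in capitals. Sequences are hg19, 5′ to 3′ on the strand of the gene. In the first set the core lay inside a FLI1 peak. These are the 6 members, of those for which sequence was taken, whose core was nearest to an annotated TSS, at 5 bases before it for ATP5PF (chr21:27107205-27107283, minus strand), 7 before it for NDUFA13 (chr19:19626964-19627044, plus) and NDUFS3 (chr11:47600512-47600636, plus), 69 for UQCRFS1 (chr19:29704064-29704190, minus), 125 for SDHB (chr1:17380589-17380715, minus) and 144 for NDUFAF4 (chr6:97345848-97345974, minus).
ATP5PF: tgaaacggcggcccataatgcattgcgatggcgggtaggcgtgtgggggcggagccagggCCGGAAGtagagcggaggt
NDUFA13: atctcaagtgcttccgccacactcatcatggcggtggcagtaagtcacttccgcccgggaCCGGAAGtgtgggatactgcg
NDUFS3: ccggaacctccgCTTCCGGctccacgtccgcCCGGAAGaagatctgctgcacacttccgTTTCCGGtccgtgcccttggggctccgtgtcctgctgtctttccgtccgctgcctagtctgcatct
UQCRFS1: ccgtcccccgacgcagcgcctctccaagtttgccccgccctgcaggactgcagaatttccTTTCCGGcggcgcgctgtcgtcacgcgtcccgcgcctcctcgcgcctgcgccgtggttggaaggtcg
SDHB: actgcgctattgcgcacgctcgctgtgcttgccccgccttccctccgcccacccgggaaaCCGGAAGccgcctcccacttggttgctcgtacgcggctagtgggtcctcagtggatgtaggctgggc
NDUFAF4: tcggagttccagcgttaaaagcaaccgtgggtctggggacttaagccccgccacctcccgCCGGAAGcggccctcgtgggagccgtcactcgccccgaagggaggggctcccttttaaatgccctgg

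The second set is from structural subunits of complex IV with H3K27ac but no FLI1 peak in the window, and was chosen after the values were seen. The core lay 2 bases before the nearest TSS in COX5B (chr2:98262460-98262537, plus), 3 after it in COX4I1 (chr16:85833243-85833320, plus), and 9, 13 and 15 before it in COX6B1 (chr19:36139153-36139235, plus), COX6A1 (chr12:120875840-120875926, plus) and COX8A (chr11:63742014-63742102, plus).
COX5B: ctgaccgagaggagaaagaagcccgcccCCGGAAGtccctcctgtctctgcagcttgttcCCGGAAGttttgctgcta
COX4I1: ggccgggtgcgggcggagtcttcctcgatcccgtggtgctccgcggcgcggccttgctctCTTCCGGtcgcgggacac
COX6B1: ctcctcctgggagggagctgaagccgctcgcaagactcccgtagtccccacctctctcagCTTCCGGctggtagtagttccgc
COX6A1: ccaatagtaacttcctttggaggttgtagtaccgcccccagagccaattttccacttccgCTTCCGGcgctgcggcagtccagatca
COX8A: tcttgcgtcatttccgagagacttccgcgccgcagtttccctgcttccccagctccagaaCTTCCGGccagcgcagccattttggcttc

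Nearly all members were acetylated, and FLI1 and SSRP1 lay at about the shares found over all genes. H3K27ac lay at 100 of the 108 members (92.6%, 85.9 to 96.7), against 57.9% of all protein-coding genes. FLI1 lay at 34 (31.5%, 22.9 to 41.1), against 29.0%, and SSRP1 at 40 (37.0%, 27.9 to 46.9), against 35.8%. All 3 marks met at 22 members (20.4%, 13.2 to 29.2), against 17.3% of all genes. A further 17 members had SSRP1 and H3K27ac, 11 had FLI1 and H3K27ac, 50 had H3K27ac alone, 1 each had FLI1 or SSRP1 alone, and 6 had no mark, against 34.7% of all genes with no mark. The intervals of the members for FLI1, SSRP1 and all 3 marks thus included the shares over all genes, and the interval for H3K27ac did not.

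**Figure D1:**
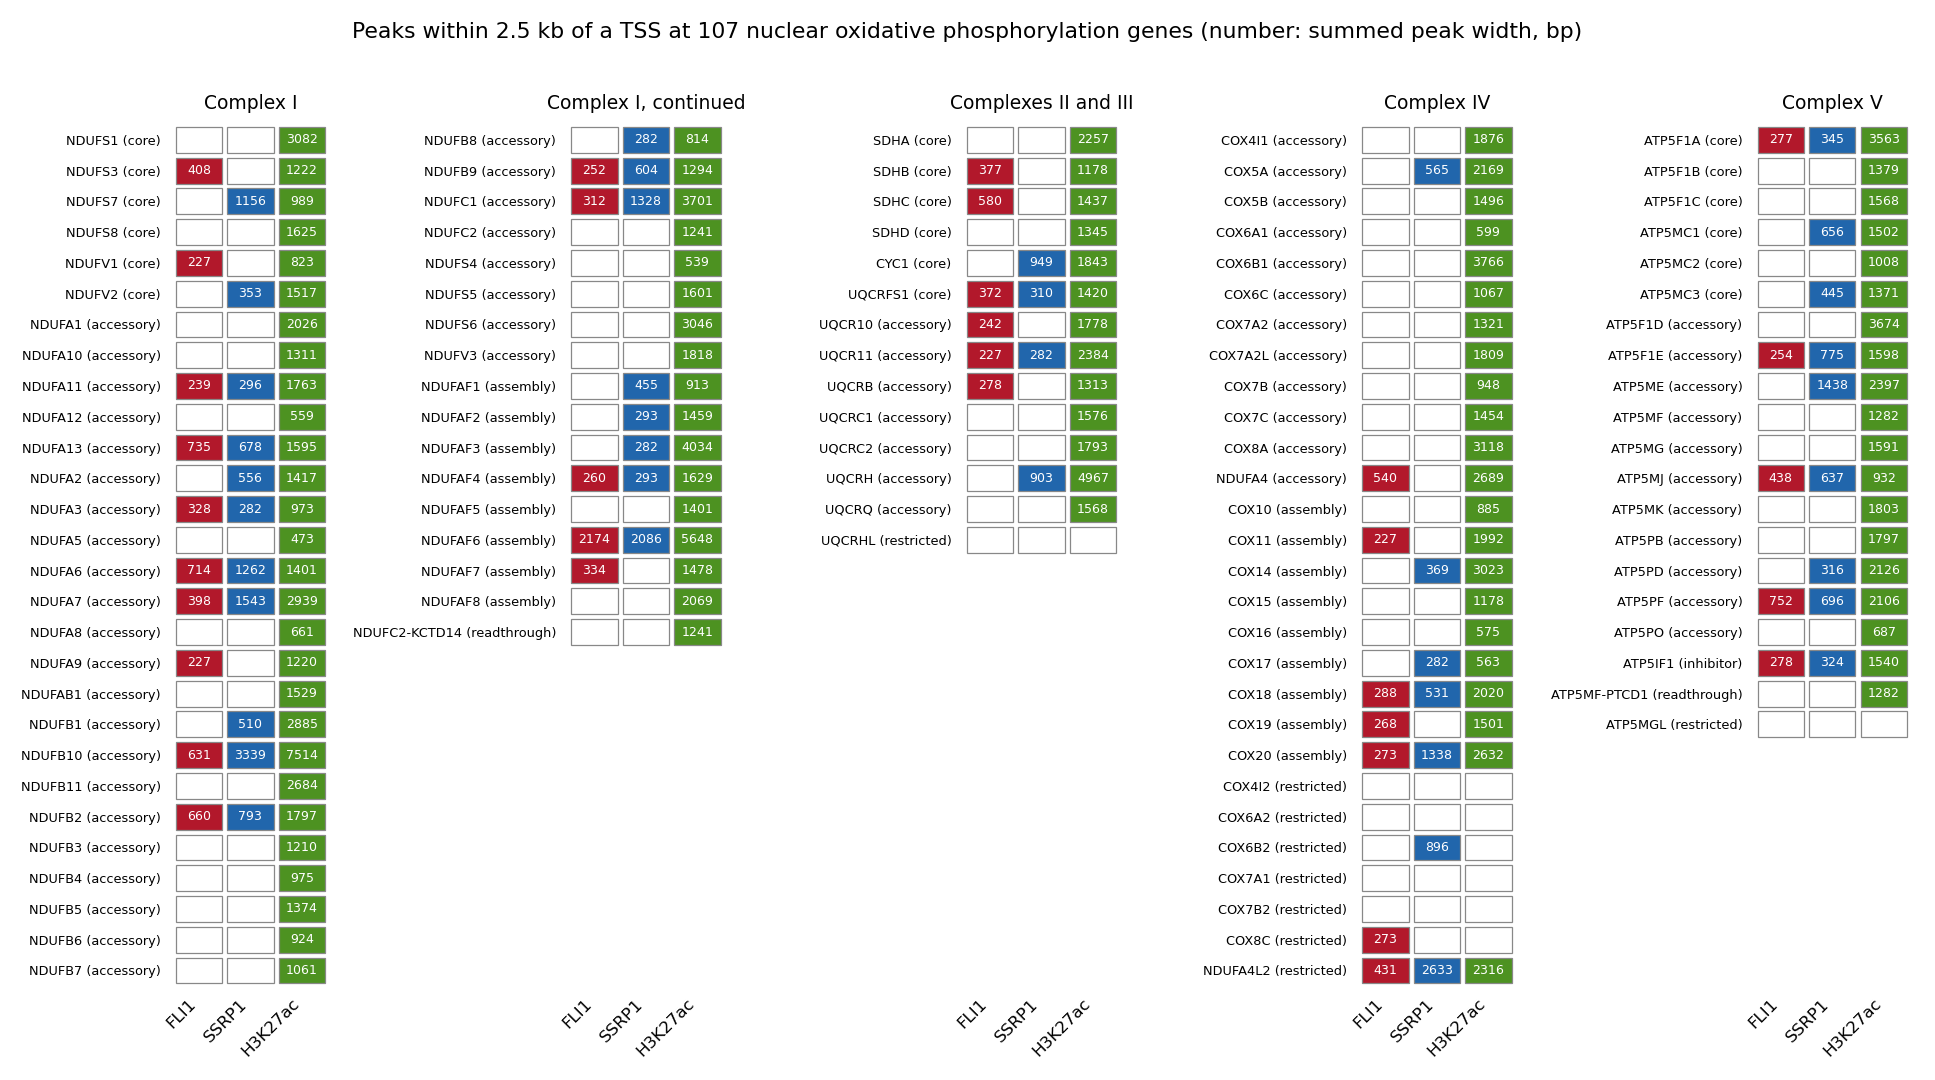
Marks at 107 of the 108 members, by complex and role. A filled box means at least 1 peak within 2.5 kb of a TSS and the number in it is the summed peak width in bp; empty boxes have no peak. The H3K27ac column is filled for every structural subunit shown and empty for 8 of the 9 restricted isoforms and retrocopies, and the complex IV block holds few FLI1 and SSRP1 boxes.

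The acetylated state divided the members by role. H3K27ac was present at all 79 structural subunits (95.4 to 100%) and at all 17 assembly factors, and at 99 of the 99 members that are not restricted isoforms or retrocopies. It was present at 1 of the 9 restricted members (11.1%, 0.281 to 48.2). COX4I2, COX6A2, COX7A1, COX7B2, UQCRHL and ATP5MGL carried no mark at all. COX6A2 and COX7A1 encode the heart and skeletal muscle forms of subunits whose ubiquitous forms, COX6A1 and COX7A2, were acetylated over 599 bp and 1321 bp. COX4I2, the form of subunit 4 best known from lung, was bare while COX4I1 had 1876 bp of H3K27ac. COX8C had a single FLI1 peak of 273 bp, 1760 bp from its TSS, and COX6B2, a testis isoform, a single SSRP1 peak of 896 bp, 346 bp from its TSS. Neither was acetylated.

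NDUFA4L2 was the exception among the restricted members. It is a paralogue of NDUFA4 known to be induced in hypoxia, and it carried all 3 marks. H3K27ac peaks of 1177 and 1139 bp lay 473 and 172 bp from its TSSs. The FLI1 peak of 431 bp began 1122 bp from a TSS, and SSRP1 peaks of 450, 333, 464 and 1386 bp lay 830 to 2102 bp away. No peak covered a TSS of the gene, and FLI1 and SSRP1 did not touch each other there. NDUFA4 itself had FLI1 (540 bp, beginning 90 bp from the TSS) and 2689 bp of H3K27ac, with no SSRP1.

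Complex I has the most nuclear subunits, and both core and accessory subunits carried FLI1 or SSRP1. Of 37 structural subunits 13 had FLI1 (35.1%), 15 had SSRP1 (40.5%), 10 had all 3 and 19 had H3K27ac alone. Among the core subunits, NDUFS3 had a 408 bp FLI1 peak over its TSS inside 1222 bp of H3K27ac and no SSRP1. NDUFV1, which binds NADH and the flavin, had a FLI1 peak of 227 bp that began 1606 bp from the TSS. NDUFS7, which holds the last iron-sulfur cluster before ubiquinone, had SSRP1 over the TSS (1156 bp, chr19:1382999-1384154) and 989 bp of H3K27ac, and NDUFV2 had SSRP1 over 353 bp, both without FLI1. The iron-sulfur subunits NDUFS1 and NDUFS8 had only H3K27ac, over 3082 and 1625 bp.

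SSRP1 was widest among complex I genes at NDUFB10 and at the assembly factor NDUFAF6. At NDUFB10, an accessory subunit, the SSRP1 peak of 2843 bp (chr16:2010419-2013261) began 866 bp into the gene and contained the whole FLI1 peak of 631 bp (chr16:2010795-2011425). A single H3K27ac peak of 7514 bp, the widest at any member, spanned both. It also covered a TSS of the ribosomal protein gene RPS2, which lay 1371 bp from the SSRP1 peak. NDUFA13, also called GRIM-19, had the widest FLI1 peak at a member, 735 bp over the TSS, together with 678 bp of SSRP1. At NDUFA6 both FLI1 peaks (352 and 362 bp) lay entirely inside SSRP1 peaks of 652 and 610 bp on either side of the start sites. NDUFAF6 had an SSRP1 peak of 1417 bp over the start site region it shares with CCNE2 and another of 669 bp over an alternative start, with 5 FLI1 peaks that summed to 2174 bp. The other accessory subunits with all 3 marks were NDUFA3, NDUFA7, NDUFA11, NDUFB2, NDUFB9 and NDUFC1. NDUFA9 had FLI1 with H3K27ac, and NDUFA2, NDUFB1 and NDUFB8 had SSRP1 with H3K27ac. Those with H3K27ac alone were NDUFA1, NDUFA5, NDUFA8, NDUFA10, NDUFA12, the acyl carrier protein NDUFAB1, NDUFB3 to NDUFB7, NDUFB11, NDUFC2, NDUFS4 to NDUFS6 and NDUFV3. Of the complex I assembly factors, NDUFAF4 and NDUFAF6 had all 3 marks, NDUFAF7 had FLI1 with H3K27ac, NDUFAF1, NDUFAF2 and NDUFAF3 had SSRP1 with H3K27ac, and NDUFAF5 and NDUFAF8 had H3K27ac alone.

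Complex II, succinate dehydrogenase, is encoded wholly in the nucleus. None of its 4 subunits had SSRP1 (0 to 60.2%), an interval that included the 35.8% of all genes and the 54.7% of acetylated genes. The iron-sulfur subunit SDHB had 377 bp of FLI1 over the TSS (chr1:17380317-17380693) and the membrane anchor SDHC had 580 bp of FLI1 over the TSS (chr1:161283842-161284421). SDHA, the flavoprotein, and SDHD, the other anchor, had H3K27ac alone, over 2257 and 1345 bp. SDHA has near-identical unprocessed copies, so reads of its locus may have been placed at either. In complex III 4 of 9 structural subunits had FLI1 and 4 had SSRP1. UQCRFS1, the Rieske iron-sulfur protein, had FLI1 (372 bp) and SSRP1 (310 bp) peaks that overlapped by 57 bp at the TSS. CYC1, cytochrome c1, had SSRP1 peaks of 630 and 319 bp, beginning 430 and 1246 bp from the TSS, and no FLI1. UQCRH, the hinge protein, had SSRP1 peaks of 405 and 498 bp, both nearer to the TSS of LRRC41. UQCR11 had FLI1 (227 bp) with SSRP1 (282 bp), UQCR10 and UQCRB had FLI1 without SSRP1, and UQCRQ had H3K27ac alone. UQCRC1 and UQCRC2, the large core proteins, had only H3K27ac, over 1576 and 1793 bp, with a FLI1 peak 2580 bp from a TSS of UQCRC2, just outside the window.

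Few structural subunits of complex IV had FLI1 or SSRP1 although all of them were acetylated. Of 12 subunits 1 had FLI1 (NDUFA4, 8.33%, 0.211 to 38.5) and 1 had SSRP1 (COX5A, 565 bp over the TSS), and 10 had H3K27ac alone (83.3%, 51.6 to 97.9). For either mark the interval of 0.211 to 38.5% included the share over all genes (29.0% for FLI1, 35.8% for SSRP1). It lay below the shares over acetylated genes (42.1% and 54.7%). Over the 67 structural subunits of the other complexes FLI1 lay at 23 (34.3%, 23.2 to 46.9) and SSRP1 at 27 (40.3%, 28.5 to 53.0). The intervals of complex IV and of the other complexes overlapped, and this contrast was drawn after the values were seen. The summed width of H3K27ac had a median of 1652 bp in complex IV. In the other complexes this median was 1401 bp (I), 1391 bp (II), 1778 bp (III) and 1591 bp (V). The median GC content of the promoters of structural subunits was lowest in complex IV, at 55.8%. It was 61.2% in complex I, 64.7% in complex II, 61.0% in complex III and 61.7% in complex V. Whether the contrast between complexes remains with GC content held alike was not tested. The members with H3K27ac alone were COX4I1, COX5B, COX6A1, COX6B1, COX6C, COX7A2, COX7A2L, COX7B, COX7C and COX8A. FLI1 peaks lay 3915 bp from COX6B1 and 3923 bp from COX8A, so a window of 5 kb gave 3 subunits with FLI1 and 2 with SSRP1. COX4I1 and COX7B lie in regions where FLI1 and SSRP1 peaks were sparse, and without them the counts were 1 of 10 for each mark, against 23 and 26 of 61 in the other complexes. Among the assembly factors of complex IV, COX18 and COX20 had all 3 marks, COX11 and COX19 had FLI1, COX14 and the copper chaperone COX17 had SSRP1, and COX10, COX15 and COX16 had H3K27ac alone.

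In complex V SSRP1 lay at 8 of 17 structural subunits (47.1%, 23.0 to 72.2) and FLI1 at 4 (23.5%), and each of those 4 also had SSRP1. They were ATP5F1A, the alpha subunit of the catalytic head, ATP5F1E, ATP5MJ and ATP5PF, which is coupling factor 6. The widest SSRP1 peaks of the complex lay over the TSSs of ATP5ME (920 bp), ATP5PF (696 bp) and ATP5MJ (637 bp). ATP5PD had SSRP1 over 316 bp without FLI1. The beta and gamma subunits, ATP5F1B and ATP5F1C, had H3K27ac alone, as did ATP5F1D, ATP5MF, ATP5MG, ATP5MK, ATP5PB and ATP5PO. The 3 genes of the membrane ring, whose mature c subunits are identical, differed: ATP5MC1 had SSRP1 peaks of 340 and 316 bp, ATP5MC3 had SSRP1 over 445 bp, and ATP5MC2 had neither SSRP1 nor FLI1. ATP5IF1, the inhibitor that blocks ATP hydrolysis, had FLI1 (278 bp) and SSRP1 (324 bp) that overlapped by 212 bp. At ATP5PF the FLI1 peak of 514 bp (chr21:27107778-27108291) lay wholly inside an SSRP1 peak of 696 bp, and a smaller FLI1 peak of 238 bp covered a TSS of the gene and the TSS of GABPA, the DNA-binding subunit of GABP, on the other strand.

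**Figure D2:**
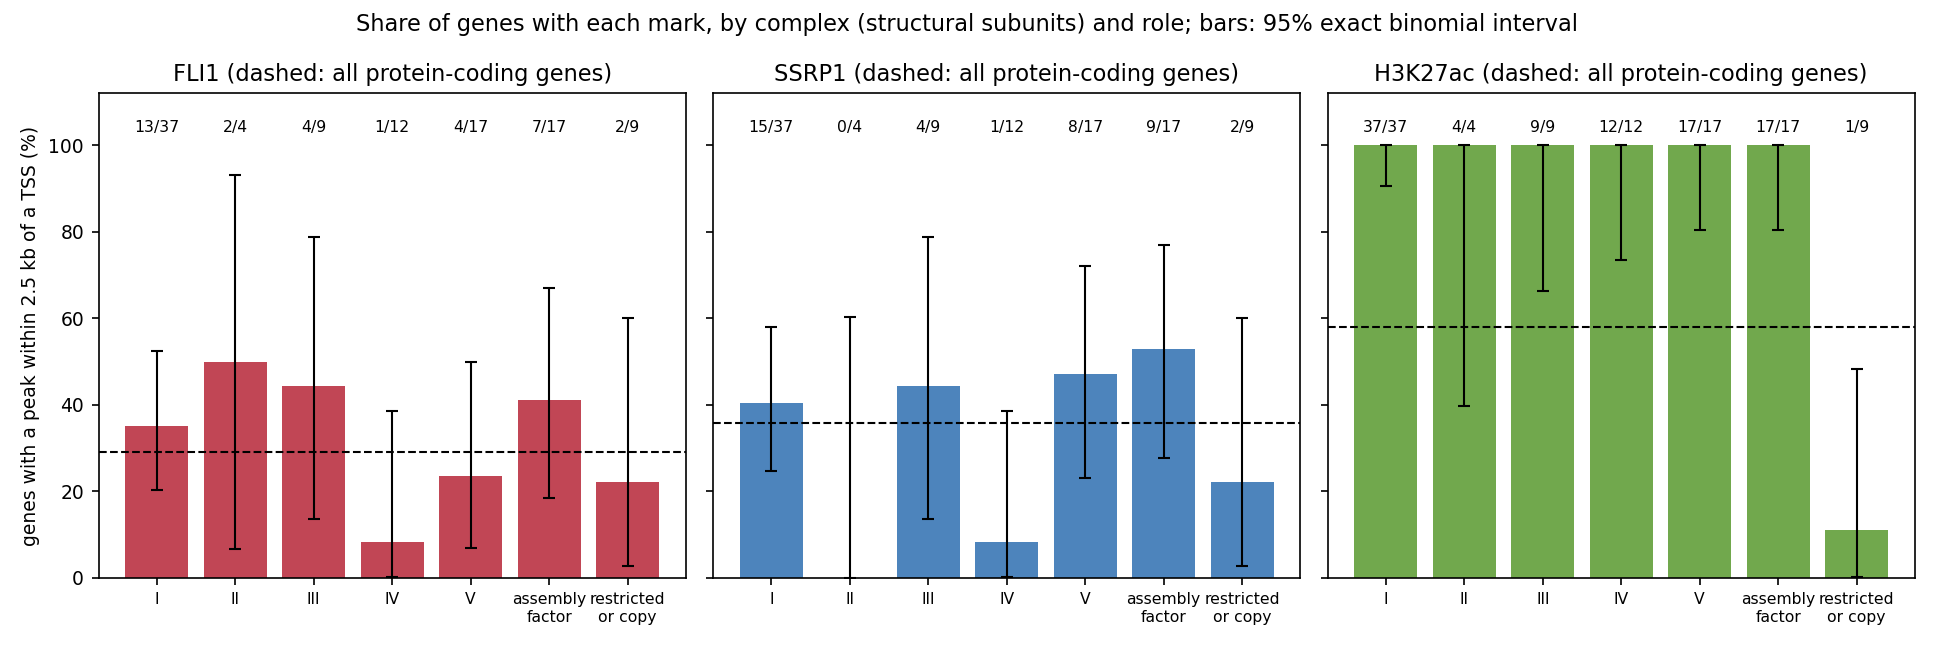
Percentage of genes with FLI1, SSRP1 and H3K27ac within 2.5 kb of a TSS, for the structural subunits of complexes I to V, the assembly factors and the restricted isoforms or retrocopies. Error bars are 95% exact binomial intervals, counts stand above the bars and the dashed line is the share over all protein-coding genes. Complex IV is at 8.33% for FLI1 and SSRP1, and H3K27ac is at 100% in every class but the last.

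Because the members were nearly all acetylated, they were next set against acetylated genes. SSRP1 lay at 39 of the 100 acetylated members (39.0%, 29.4 to 49.3), against 54.7% of the 11624 acetylated protein-coding genes, and FLI1 at 33 (33.0%, 23.9 to 43.1), against 42.1%. Both lay at 22 (14.3 to 31.4%), against 30.0%, and H3K27ac stood alone at 50 members (50.0%, 39.8 to 60.2), against 33.1%. The SSRP1 share lay below the background by more than counting error, while the FLI1 interval included it. A low SSRP1 share was not particular to the members, since mitochondrial ribosomal protein genes, reported below, also had one. Holding the width of acetylation alike moved the comparison little. Summed H3K27ac width had a median of 1523 bp at acetylated members and 1574 bp at other acetylated genes, and other acetylated genes weighted to the members' width deciles had SSRP1 at 54.5%. When the number of TSSs was also held alike the value was 54.9%. Promoter base composition did move it. The median GC content from 250 bases before to 50 after the TSS was 61.0% at members and 66.3% at acetylated genes, and with the GC quintile held alike other acetylated genes had SSRP1 at 47.2%, inside the members' interval (39.4%, 29.7 to 49.7, over the 99 with a canonical TSS). With width, GC, shared promoters and sparse regions all held alike the values were 39.4% at members and 46.7% at the others. For FLI1 the same 4 properties gave 33.3% (24.2 to 43.5) at members and 42.3% at the others. These properties beyond width were chosen after the values were seen.

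By class of H3K27ac width, the members stood below other acetylated genes for SSRP1 mainly in the middle class. Where the summed width was 1000 to 1999 bp, SSRP1 lay at 15 of 54 members (27.8%, 16.5 to 41.6), against 50.0% of other acetylated genes. Below 1000 bp it lay at 6 of 18 members (33.3%), against 33.8%, and at 2000 bp or more at 18 of 28 (64.3%, 44.1 to 81.4), against 75.1%. FLI1 lay at 16.7%, 33.3% and 42.9% of members from the narrowest class to the widest, against 26.6%, 39.0% and 56.8% of other acetylated genes. Both marks were thus most frequent where acetylation was widest, in members as in other genes.

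**Figure D3:**
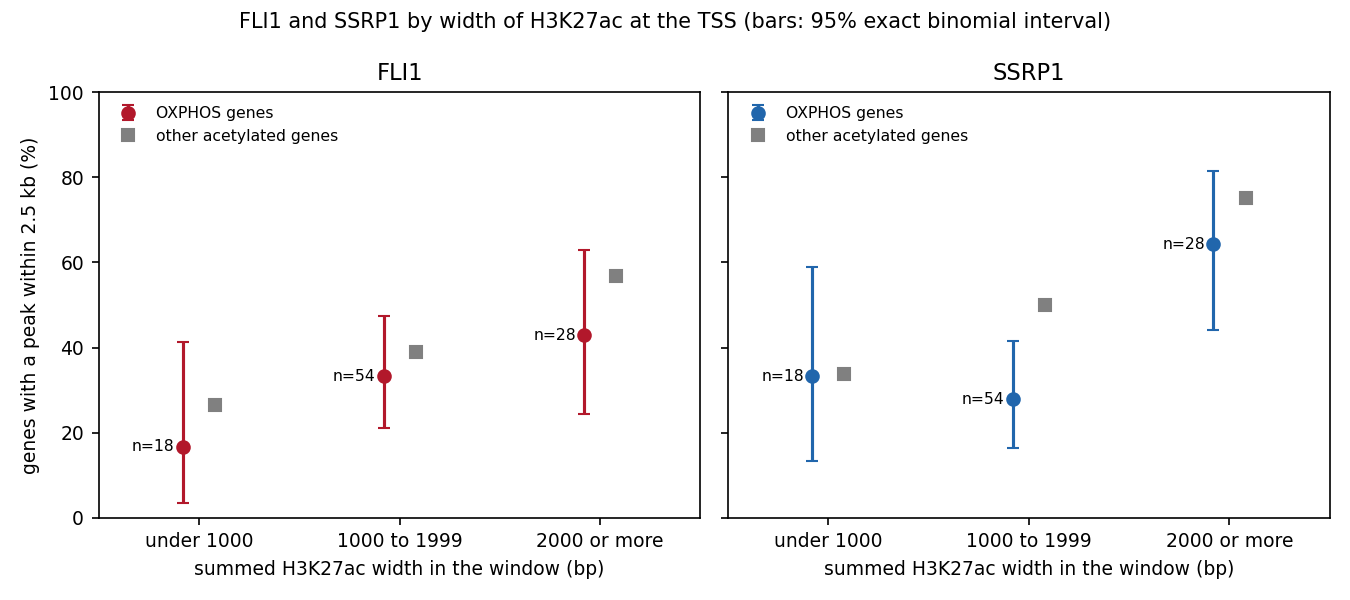
Percentage of acetylated genes with FLI1 (left) and SSRP1 (right) by summed width of H3K27ac in the window. Coloured points are oxidative phosphorylation genes with 95% exact binomial intervals and grey squares are other acetylated genes. For SSRP1 the gap is widest at 1000 to 1999 bp, at 27.8% against 50.0%.

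Coverage along the promoters was next compared, where a lower share of marked genes lowers the coverage in every bin. The bin of 50 bases just after the TSS was covered by H3K27ac at 99.0% of 99 acetylated members, against 87.7% of 11474 other acetylated genes. SSRP1 covered at most 23.2% of members, in that same bin, and at most 33.3% of other acetylated genes, 150 to 199 bases after the TSS. Averaged over all bins after the TSS its coverage was 6.06% in members and 10.8% in other acetylated genes, whereas before the TSS it was 5.58% and 7.00%. FLI1 covered at most 13.1% of members, from 150 to 101 bases before the TSS and again after it, and at most 17.7% of the other genes, just after the TSS. Among marked genes alone, FLI1 peaks covered a TSS at 10 of 34 members (29.4%, 15.1 to 47.5), against 43.7% of other genes, and SSRP1 peaks at 22 of 40 (55.0%, 38.5 to 70.7), against 52.7%. Both intervals included the share of the other genes. Peak widths were alike: the median was 320 bp for the 42 FLI1 peaks at members and 330 bp for those at other genes, and 455 bp for SSRP1 in both sets. Where members had both FLI1 and SSRP1, the peaks overlapped at 18 of 22 (81.8%, 59.7 to 94.8), against 78.2% of other genes with both. They lay apart at NDUFA11, NDUFA4L2, NDUFAF4 and UQCR11.

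**Figure D4:**
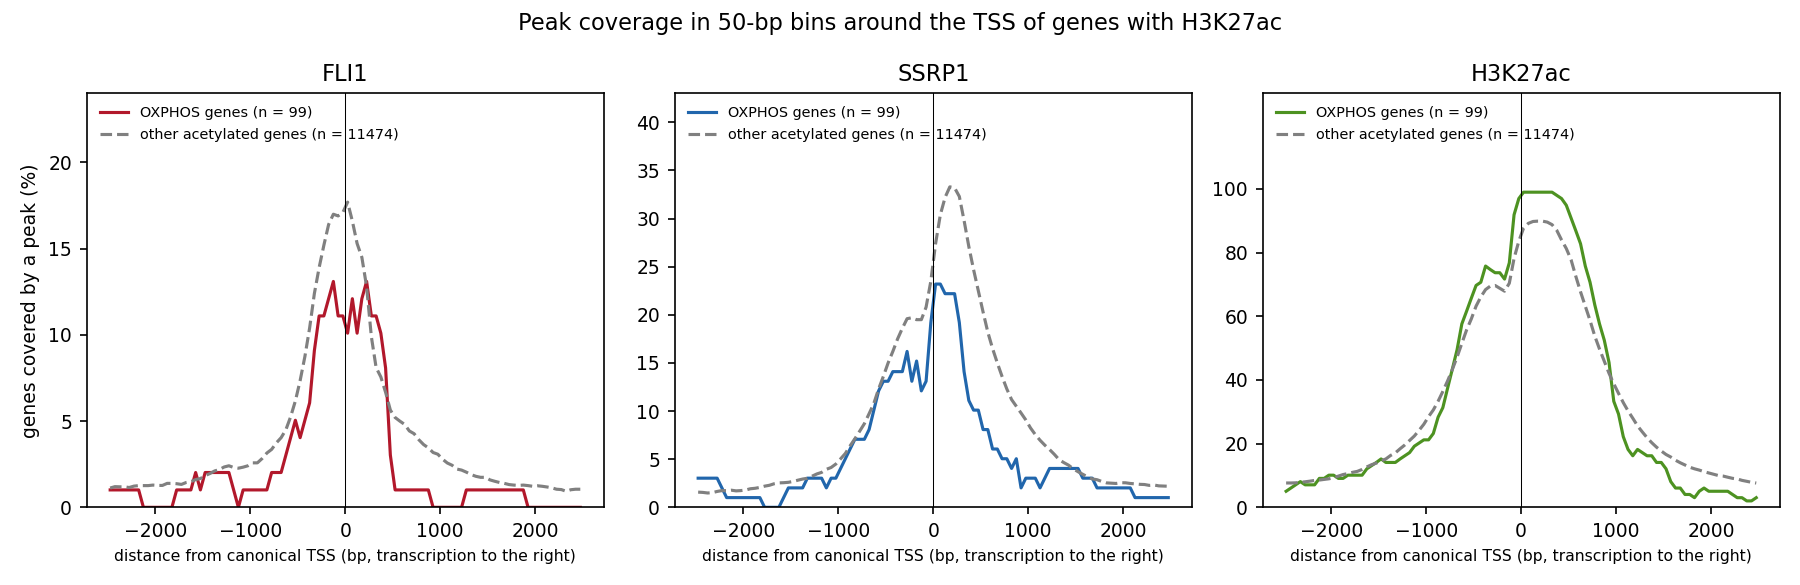
Percentage of acetylated genes covered by a peak in 50-base bins from 2500 bases before to 2500 after the canonical TSS, with transcription to the right. Coloured lines are the 99 acetylated oxidative phosphorylation genes with a canonical TSS and dashed grey lines the 11474 other acetylated genes. SSRP1 reaches 23.2% in the members and 33.3% in the others, and the vertical scales differ between panels.

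Many of these peaks stood at promoters shared with another gene. A protein-coding TSS on the opposite strand at most 1 kb upstream was found for 39 of 108 members (36.1%, 27.1 to 45.9), against 12.7% of all genes and 20.2% of acetylated genes. Pairs that joined the members to genes of other mitochondrial proteins were NDUFS6 with MRPL36 (41 bp apart), NDUFB5 with MRPL47 (149 bp) and SDHD with TIMM8B (116 bp). ATP5PF was paired with GABPA (68 bp). NDUFA7 faced the ribosomal protein gene RPS28 at 121 bp, and both its FLI1 peak and its widest SSRP1 peak (1116 bp) lay nearer to RPS28. A member's own TSS was the nearest protein-coding one for at least 1 peak at 28 of the 34 members with FLI1, 36 of the 40 with SSRP1 and all 100 with H3K27ac. The exceptions for FLI1 were ATP5F1A, NDUFA11, NDUFA7, NDUFA9, NDUFAF7 and UQCR10, and for SSRP1 ATP5F1A, ATP5PD, NDUFB1 and UQCRH. At ATP5F1A both peaks lay nearer to HAUS1.

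The promoters of the members held motifs of their known activators more often than promoters of all genes. In the 300 bases around the canonical TSS, an ETS core stood at 38 of 107 members (35.5%, 26.5 to 45.4), against 18.2% of all 19811 promoters and 26.4% of acetylated ones. The YY1 motif AAGATGGC stood at 18 (16.8%, 10.3 to 25.3), against 4.07% and 6.25%, and the palindromic NRF1 motif at 7 (6.54%, 2.67 to 13.0), against 1.70% and 2.58%. The CCAAT box stood at 32.7%, against 36.0% of all promoters. A raised share of ETS cores was not particular to the members. Among gene groups reported below, it was 47.4% for mitochondrial ribosomal proteins, 51.8% for cytoplasmic ribosomal proteins and 43.6% for proteasome subunits. The YY1 motif stood at 28.2% of mitochondrial ribosomal protein genes, and less often than at members in the other groups named. The NRF1 motif stood less often in each of these groups than at members. Both strands were searched, and a YY1 match may share letters with an ETS core. Complex IV held the ETS core at 8 of 12 structural subunits (66.7%, 34.9 to 90.1), complex V at 8 of 17, complex III at 4 of 9, complex II at 2 of 4 and complex I at 10 of 36. None of the 9 restricted members had an ETS core, a YY1 motif or an NRF1 motif there. A match describes letters in this window and does not show that a factor binds.

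FLI1 was next compared between promoters with and without an ETS core. It lay at 10 of 38 acetylated members with an ETS core (26.3%, 13.4 to 43.1) and at 23 of 61 without one (37.7%, 25.6 to 51.0). Among other acetylated genes it lay at 48.8% of those with an ETS core and at 39.9% of those without. The interval of the members with an ETS core lay below the matching genes, and that of the members without one included them. Regions where FLI1 peaks were sparse over all genes held 8 of the 38 members with a core and 4 of the 61 without, and none of these had FLI1. Outside those regions FLI1 lay at 10 of 30 members with a core (33.3%, 17.3 to 52.8), against 53.7% of other acetylated genes with one, and at 23 of 57 members without (40.4%, 27.6 to 54.2), against 44.7%. The upper end of the interval with a core then came within 1 percentage point of the other genes. The intervals of members with and without a core overlapped. SSRP1 lay at 28.9% of members with a core and 45.9% of those without, against 45.4% and 58.2% of other acetylated genes. Of the 11 complex IV subunits without FLI1, 8 had an ETS core, among them COX5B with a pair of them, both printed above. These counts took a FLI1 peak anywhere in the window, which need not cover the core. At ATP5PF, NDUFA13 and NDUFS3 the peak did cover the core beside the TSS.

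**Figure D5:**
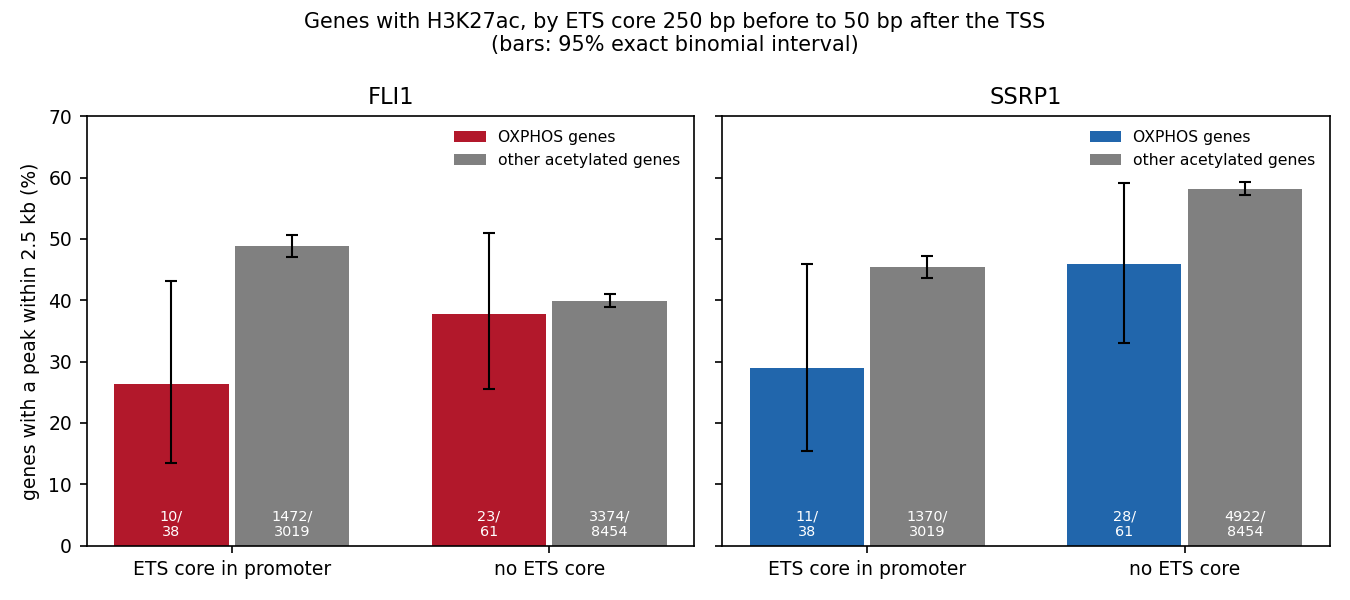
Percentage of acetylated genes with FLI1 (left) and SSRP1 (right) within 2.5 kb, split by an ETS core from 250 bases before to 50 after the canonical TSS. Coloured bars are oxidative phosphorylation genes, grey bars other acetylated genes, error bars 95% exact binomial intervals and the numbers inside are counts. FLI1 with an ETS core is at 26.3% in the members and 48.8% in the other genes.

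The FLI1 peaks themselves had the sequence make-up of FLI1 peaks at other promoters. An ETS core lay in 12 of the 42 peaks at members (28.6%, 15.7 to 44.6), against 24.7% of 6574 peaks at other genes. None of the 42 held 4 or more GGAA in a row, the repeat on which EWS-FLI1 is known to act, which allows up to 8.41%, against 0.882% of peaks at other genes. No member had a FLI1 peak on such a run within 10 kb of a TSS, against 0.951% of all genes. Within 50 kb there were 3, against 4.01% of all genes, among them ATP5MC2 at 12344 bp, on a run of 15 repeats, and NDUFA7 at 28220 bp.

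FLI1 and SSRP1 peaks were sparse over all genes on chromosomes 10 and X, on chromosome 3 before 120 Mb, on 16 from 40 Mb and on 17 before 20 Mb, where FLI1 lay at 6.37% of genes. The 12 members there (ATP5F1C, ATP5MK, COX10, COX15, COX17, COX4I1, COX7B, NDUFA1, NDUFAF3, NDUFB11, NDUFB8 and UQCRC1) had no FLI1, 3 had SSRP1 (25.0%, 5.49 to 57.2), against 13.1% of genes there, and all 12 were acetylated, against 52.7%. Of acetylated genes in these regions 23.1% had SSRP1, close to the members, and 10.9% had FLI1. Elsewhere FLI1 lay at 34 of 96 members (35.4%), against 33.0% of genes, and SSRP1 at 37 (38.5%), against 39.7%.

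Gene groups that work with the respiratory chain, and the proteasome and cytoplasmic ribosomal protein genes, were also mostly acetylated. Mitochondrial ribosomal protein genes, whose products translate the mitochondrially encoded subunits, had H3K27ac at 78 of 78, FLI1 at 29 (37.2%) and SSRP1 at 29 (37.2%). Over all acetylated genes FLI1 lay at 42.1% and SSRP1 at 54.7%. Of 39 proteasome subunit genes, 6 had all 3 marks, 6 had SSRP1 with H3K27ac, 10 had FLI1 with H3K27ac and 14 had H3K27ac alone. Of 85 cytoplasmic ribosomal protein genes the same counts were 16, 26, 10 and 31. Assembly factors outside the symbol rule had H3K27ac at 32 of 32, FLI1 at 9 and SSRP1 at 10. Enzymes of the tricarboxylic acid cycle had H3K27ac at 13 of 13, with FLI1 and SSRP1 at 5 each. Glycolysis enzymes had H3K27ac at 17 of 22, SSRP1 at 12 and FLI1 at 7. Of 15 regulators of mitochondrial biogenesis 14 had H3K27ac, 10 had FLI1 (66.7%, 38.4 to 88.2) and 8 had SSRP1 (53.3%, 26.6 to 78.7). The GABP subunit genes GABPA, GABPB1 and GABPB2 and the gene of NRF1 each had all 3 marks, with 2 FLI1 peaks apiece, and those of GABPA were the same peaks as at ATP5PF. The genes of the mitochondrial transcription machinery TFAM, TFB1M, TFB2M and POLRMT had FLI1 with H3K27ac and no SSRP1. PPARGC1A, a coactivator best known from muscle and brown fat, had no mark. Over these 15 genes the FLI1 interval lay above the 29.0% of all genes and included the 42.1% of acetylated genes.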

How the data were processed

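The FLI1, SSRP1 and H3K27ac peak lists of SK-N-MC were used, each grouped by its sample's title. The series' design text states micrococcal nuclease digestion before sonication, which favours nucleosome-bound fragments. It also states that the authors aligned with Bowtie2 (default settings, hg19) and used MACS2 for peaks over input at a q-value of 0.05. The submitters' processing notes name MACS2 2.2.7.1, deepTools and HOMER. Filters on reads are not given in the sources used here. Near-identical loci such as SDHA and its copies can exchange reads under those alignment settings. The deposited values are peak coordinates, other than a signal, and carry no strength.

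Repeated intervals were counted once: 62198 entries for H3K27ac held 37271 distinct peaks, 38324 for FLI1 held 36539 and 23078 for SSRP1 held 19955, before chromosomes 1 to 22 and X were kept. Genes and TSSs of basic transcripts came from GENCODE release 44 mapped to GRCh37, and no peak ended beyond its chromosome there. Coordinates are 1-based. Promoters ran from 250 bases before to 50 after the canonical TSS, which NDUFB6 lacks. Complexes and roles were assigned from general knowledge. NDUFA4 was counted in complex IV despite its symbol. COX7A2L was counted among the structural subunits of that complex, and its place there is less certain. Other acetylated genes were weighted to the members' classes (H3K27ac width deciles and the properties named in the text). No p-value was computed. The values of 1 member are not reported here by name, although it is included in the counts. The counting was tested on simulated data.

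The members, lists and comparisons were chosen with earlier results of these data known. Named by rule were every member's combination of marks, the core subunits, the widest SSRP1 peaks of each complex, all members without H3K27ac, and at most 6 sequences with an ETS core in a FLI1 peak. Alternatives were other windows, canonical TSSs, peak midpoints, wider peaks, left-out chromosomes, member subsets and motifs, and, added after the data were seen, left-out sparse regions, nearest TSSs and further weightings. Tools were matplotlib 3.10.9, pandas 2.3.3, numpy 2.4.6 and scipy 1.17.1 in Python 3.11.15.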

Additional observations from a re-analysis of the deposited data

How the results depend on the processing

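The 10 values in the next 3 sentences moved by more than the counting interval, and 58 others were not counted as moved. With only peaks at or above the median width of their list, FLI1 lay at 17.6% of members against 20.1% of all genes, SSRP1 at 23.1% against 24.4%, all 3 marks at 11.1% against 9.92%, SSRP1 at 25.8% of acetylated members against 41.7% of acetylated genes, and FLI1 at 20.4% against 32.8%. H3K27ac lay at 100% of structural subunits and at 100% of members without restricted isoforms and retrocopies. The share of FLI1 peaks at members with the motif was 97.6% for GGAA, 4.76% for CCGGAAGT and 14.3% for the ETS core in the central 150 bases, against 93.9%, 7.07% and 13.3% at other genes. Windows of 1 and 5 kb gave FLI1 at 25.0% and 37.0% of members, against 24.5% and 34.4% of all genes. They gave SSRP1 at 36.1% and 41.7% of members, against 33.6% and 38.4%. Counting peaks nearest to the member's own TSS gave 25.9% for FLI1 and 33.3% for SSRP1, and the same shares over all genes were not computed. SSRP1 at acetylated members was 35.0% with peaks nearest to the member's own TSS, again with no share over all acetylated genes. In the other settings apart from peak width it was between 35.4% and 42.6%, against 53.1% to 59.6% of acetylated genes. With GC held alike the weighted SSRP1 share of other acetylated genes was 47.2%, or 46.7% with all 4 properties, in place of 54.5%. The values of 47.2% and 46.7% are among the 58, but weighted shares carry no counting interval to judge them by. No paired analysis was possible because each target had 1 library. The planned stricter threshold was replaced by peak width, since the lists hold no strength, and small counts per complex leave wide intervals.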

Other observations

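Pseudogenes of the members were largely bare. Of 198 pseudogenes named for 54 members, 13 had FLI1 within 2.5 kb (6.57%, 3.54 to 11.0), 6 had SSRP1 (3.03%) and 13 had H3K27ac (6.57%), against 31.5%, 37.0% and 92.6% of members. Over the body of the pseudogene the counts were 5, 4 and 6. The unprocessed copies of SDHA on chromosome 3 held several of these peaks: FLI1 peaks met the body of SDHAP1 in 8 places, SDHAP2 in 4 and SDHAP4 in 2, while SDHA itself had no FLI1 peak in its window. Reads of near-identical copies can be placed at either copy, and the part of this in these peaks was not tested.

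For members without a mark in the window the distance to the nearest peak was taken. The same shares over all genes were not computed, so these counts are not a result about the members. Of the 74 members without FLI1, the nearest FLI1 peak lay within 5 kb of a TSS at 6, within 10 kb at 18 and within 50 kb at 53. Of the 68 without SSRP1, it lay within 5 kb at 5, within 10 kb at 15 and within 50 kb at 37. Readthrough genes shared their only H3K27ac peak with the gene they begin in: NDUFC2-KCTD14 with NDUFC2, over 1241 bp, and ATP5MF-PTCD1 with ATP5MF, over 1282 bp.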
